A study of Mus musculus with 17 samples.

Results

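The 42 genes described here make, edit or carry heparan sulfate in mouse brain, and Ndst3, whose human counterpart was delivered as a treatment, is 1 of them. They were chosen by name for their role, though with earlier results of these data known. The RNA-seq table lists all 42 among its 20328 genes, and all 42 were among the 19300 genes with enough reads to be tested. Female wild-type ICR mice were 8 weeks old when 10 µg/µl of 6-OHDA, a toxin that kills catecholamine neurons, was injected on 1 side into the substantia nigra to give the 6-OHDA-induced PD model. In the NDST3-treated PD model (6-OHDA+NDST3), 2 µl of an AAV9 with human NDST3 under the CMV promoter, which is active in most cell types, followed after 5 days. The controls were sham mice. For RNA-seq there were 2 libraries of sham, 1 of 6-OHDA and 2 of 6-OHDA+NDST3. The delivered NDST3 is human and the table lists mouse genes, so that the level of the delivered gene was not measured here.

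Heparan sulfate is a chain of alternating uronic acid and glucosamine that is built in the Golgi on a core protein, after a short sugar linker has been placed on a serine. The EXT polymerases lengthen the chain, and NDST enzymes then remove acetyl groups and add sulfate, which opens the chain to the epimerase and to the 2-O-, 6-O- and 3-O-sulfotransferases. The sulfate pattern decides which growth factors, guidance cues and adhesion proteins the chain binds, and it can be trimmed outside the cell by the SULF sulfatases and cut by heparanase. Syndecans span the membrane, glypicans are held to it by a lipid anchor, and agrin and perlecan are secreted into the matrix.

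Promoter sequence was at hand for 33 of the 42 members, in 40 windows of the 250 bases before a start site (RefSeq, GRCm38.p6). The members' windows held a median of 17.5 CpG (from 1 to 43), against 6 over all 32851 windows. At least 10 CpG stood in 30 of the 40 windows and in 37.8% of all windows. The GC box GGGCGG, or CCGCCC on the other strand, stood in 25 of the 40 and in 32.7% of all. TATAAA, or TTTATA on the other strand, stood in 3 of the 40 (a window each of Hs6st2, Sulf2 and Gpc5) and in 12.4% of all. The E-box CACGTG stood in 3 of the 40 and in 6.02% of all. TGACTCA or TGAGTCA stood in none of the 40 and in 4.46% of all. Such matches are descriptions of letters and not binding sites.

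The windows of 5 members are given because the results turn on them. Ndst3 is the mouse counterpart of the delivered gene, and Hpse had the largest RNA difference. Hs6st3, Gpc5 and Papss1 had H3K27ac regions near the start that differed by over 2-fold between groups. Ndst4 and Sulf1 also had such regions, but no window was at hand for them. The listed region positions do not match GRCm38, so whether a window belongs to the start beside its gene's region is not known. Each window is written 5′ to 3′ along the gene's strand and ends just before the start site, with every CpG in capitals.
Ndst3, chr3:123672478-123672727, minus strand: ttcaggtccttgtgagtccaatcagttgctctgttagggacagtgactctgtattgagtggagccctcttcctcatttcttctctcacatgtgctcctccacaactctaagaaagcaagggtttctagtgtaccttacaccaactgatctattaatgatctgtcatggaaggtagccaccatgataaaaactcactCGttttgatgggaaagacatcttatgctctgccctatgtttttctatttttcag
Hpse, chr5:100719717-100719966, minus strand: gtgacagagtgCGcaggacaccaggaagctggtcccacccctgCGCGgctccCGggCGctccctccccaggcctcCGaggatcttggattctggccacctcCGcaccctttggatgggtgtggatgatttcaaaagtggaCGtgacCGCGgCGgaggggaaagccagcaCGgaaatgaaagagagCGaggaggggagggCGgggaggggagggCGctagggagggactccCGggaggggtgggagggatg
Hs6st3, chr14:119138015-119138264, plus strand: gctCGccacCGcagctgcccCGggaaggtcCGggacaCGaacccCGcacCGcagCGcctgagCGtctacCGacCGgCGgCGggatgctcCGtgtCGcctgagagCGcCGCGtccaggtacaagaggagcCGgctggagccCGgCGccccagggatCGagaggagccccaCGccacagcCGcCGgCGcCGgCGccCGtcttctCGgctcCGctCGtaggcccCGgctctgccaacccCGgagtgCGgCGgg
Gpc5, chr14:115091965-115092214, plus strand: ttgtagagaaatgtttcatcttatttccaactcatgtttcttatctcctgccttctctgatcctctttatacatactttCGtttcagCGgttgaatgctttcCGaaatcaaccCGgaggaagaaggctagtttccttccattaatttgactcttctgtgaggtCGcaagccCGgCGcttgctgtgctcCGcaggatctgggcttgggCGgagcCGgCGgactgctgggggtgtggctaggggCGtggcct
Papss1, chr3:131564518-131564767, plus strand: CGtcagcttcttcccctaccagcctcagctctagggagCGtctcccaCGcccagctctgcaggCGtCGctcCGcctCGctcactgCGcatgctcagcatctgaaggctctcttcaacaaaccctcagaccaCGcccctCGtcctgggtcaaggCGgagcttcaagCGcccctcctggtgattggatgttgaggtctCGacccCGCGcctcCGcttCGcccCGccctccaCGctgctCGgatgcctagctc
The Ndst3 window held 1 CpG and was 42.4% G or C, and 7.87% of all windows held fewer CpG. A second window is listed for Ndst3, with 3 CpG, and neither lies at the outer 5′ end of the gene, so which start is used in these libraries is not known. The Hs6st3 window held 36 CpG, more than 97.4% of all windows. Hpse had 16, Papss1 20 and Gpc5 12, and the Gpc5 window also had TTTATA.

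The RNA-seq libraries held between 51003699 and 70533326 counts, and the smallest count listed for any gene was 1. The labels give the tissue only as brain, and markers of neurons, oligodendrocytes and astrocytes were all present in each library. Markers of brain regions and of cell types differed between the libraries, and the single 6-OHDA library stood apart. Summed over 10 neuron markers, the level was 7030 and 7860 CPM (counts per 1000000, after TMM scaling) in sham, 2700 in 6-OHDA, and 6330 and 5570 in 6-OHDA+NDST3. The 10 dopaminergic markers summed to 948 and 913, then 167, then 295 and 278 CPM. The 7 hypothalamus markers summed to 173 CPM in 6-OHDA and to between 5.09 and 11 in the other libraries. The 3 listed raphe or hindbrain markers summed to 1.26 CPM in 6-OHDA and to between 106 and 295 elsewhere, and the 5 tectum markers to 3.45 against 29.3 to 97.3. Choroid plexus markers summed to 1170 CPM in the second 6-OHDA+NDST3 library and to between 46.8 and 108 in the others. Whether dissection differed, and its part in any result, was not tested.

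Heparan sulfate genes differed between the 6-OHDA-induced PD model and sham in both directions. The sulfatase Sulf2, heparanase, Sdc1, Sdc4, Gpc4, Gpc6, perlecan and agrin were higher after the lesion, while Hs6st2, Hs6st3, Hs3st2, Hs3st4, Hs3st5, Gpc5, Extl2 and B3gat3 were lower. In all, 20 of the 42 members passed an adjusted p of 0.05 (edgeR quasi-likelihood test, adjusted by Benjamini-Hochberg over all genes, with SE for the standard error of the log2 value), 12 higher and 8 lower. Over all genes tested the share was 35.8%, 18.8% higher and 17.1% lower. The median log2 fold change was 0.23 for the members and 0.00 for all genes. By the threshold the study names, 2-fold and a raw p under 0.05, 15 members passed (7 higher, 8 lower) against 24.5% of all genes (14.4% higher, 10.1% lower). A raw p under 0.05 alone was reached by 25 members and by 47.9% of all genes. The 6-OHDA level lay above both sham libraries for 24 members (45.3% of all genes) and below both for 16 (44.3%), which sums to 89.7% of all genes.

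There is 1 library of the 6-OHDA-induced PD model, and the test assumes that it varies like the other groups. Nothing in the labels says that replicates are separate animals, so that the p-values measure only the spread between these samples. Without sham 1, or without sham 2, edgeR called 0 members and 0 genes in this comparison. With single libraries left out, the log2 value lay between 4.38 and 6.86 for Hpse and between -1.79 and -1.55 for Hs6st2. With all libraries DESeq2 called 23 members and 36.9% of all genes. All 20 called members kept their direction in all 14 alternatives, but each alternative used the same single 6-OHDA library. How the direction depends on that library could thus not be seen.

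**Figure D1:**
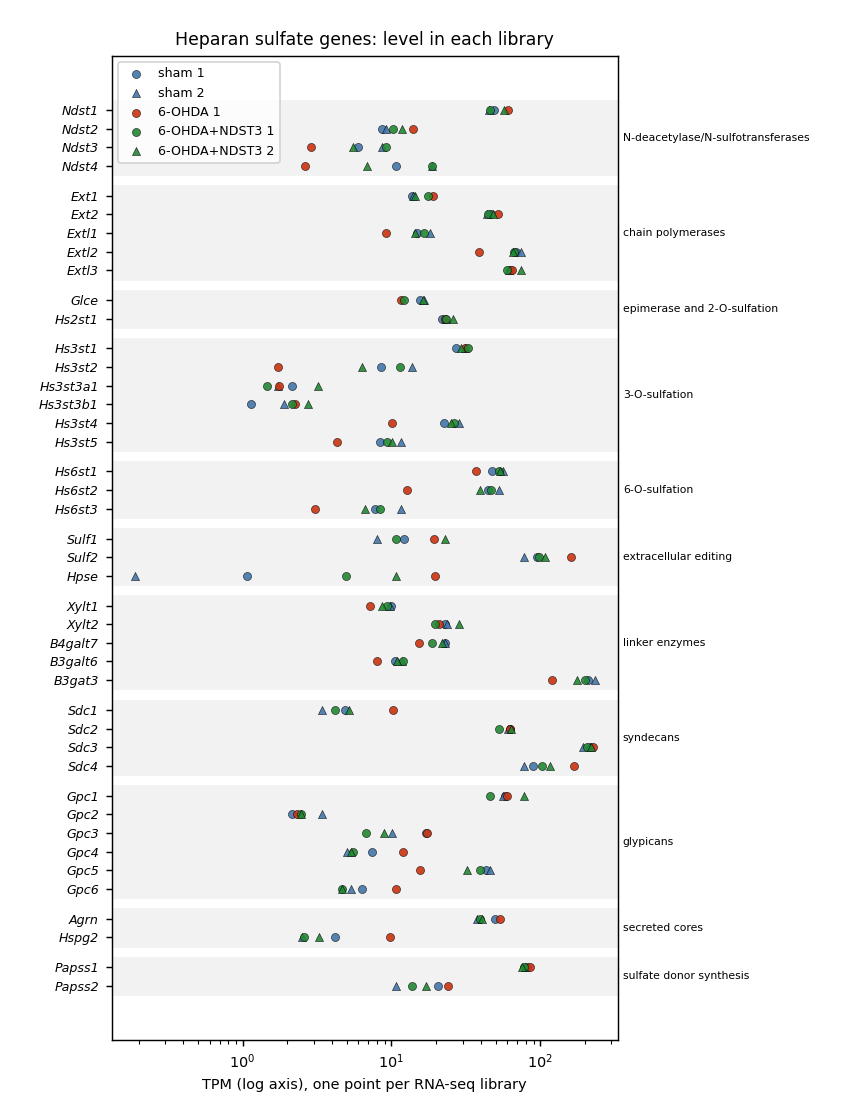
Level of each of the 42 members in each RNA-seq library, as the authors' TPM (transcripts per 1000000) on a log axis, ordered by role, with 1 point for each library of sham (2), 6-OHDA (1) and 6-OHDA+NDST3 (2). Sdc3 (194 to 227 TPM) and B3gat3 (120 to 232 TPM) were highest in most libraries, and Hpse spanned 0.188 to 19.7 TPM.

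Among the 4 N-deacetylase/N-sulfotransferases, which start the sulfation of the chain, Ndst1 and Ndst2 rose while Ndst3 and Ndst4 had lower values that did not pass edgeR's adjusted threshold. Ndst2 stood at 13.7 and 14.6 CPM in sham, 25.3 in 6-OHDA, and 17.1 and 19.0 in 6-OHDA+NDST3. The 6-OHDA library was the highest of the 5, with a log2 fold change of 0.84 against sham (SE 0.14, adjusted p = 0.0139 from edgeR). Ndst1, the member with the highest level per length of the family, had 159 and 148 CPM in sham, 228 in 6-OHDA, and 158 and 192 in 6-OHDA+NDST3. It rose by 0.57 (SE 0.15, adjusted p = 0.0396 from edgeR), a call that was kept in 8 of the 14 alternatives.

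Ndst4 (chr3:125404029-125728351 in GRCm38.p6) had 22.1 and 37.7 CPM in sham, 6.20 in 6-OHDA, and 39.5 and 14.3 in 6-OHDA+NDST3. The 6-OHDA library was the lowest, but the libraries within each replicated group lay far apart. Its log2 fold change of -2.27 had an SE of 0.74 (adjusted p = 0.0680 from edgeR). Ndst3 (chr3:123526166-123691174 in GRCm38.p6) followed the same order of libraries, with 14.1 and 21.0 CPM in sham, 7.96 in 6-OHDA, and 23.3 and 13.5 in 6-OHDA+NDST3. Its log2 fold change of -1.14 had an SE of 0.43 (adjusted p = 0.0966 from edgeR). Ndst3 and Ndst4 both passed the study's threshold of 2-fold and a raw p under 0.05, and DESeq2 called both by adjusted p. Each was called in 5 of the 14 alternatives. For both genes sham 2 and the first 6-OHDA+NDST3 library were above sham 1 and the second 6-OHDA+NDST3 library.

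Set side by side per length, the 4 genes made up a summed 74.4 and 81.3 TPM in sham, 79.8 in 6-OHDA, and 84.3 and 81.1 in 6-OHDA+NDST3, so that the family's sum varied little while its makeup differed. Ndst1 gave 66.0% and 55.2% of that sum in sham, 75.6% in 6-OHDA, and 54.8% and 70.3% in 6-OHDA+NDST3. Ndst3 gave 7.98% and 10.6%, then 3.60%, then 10.9% and 6.75%. Ndst4 gave 14.4% and 22.8%, then 3.27%, then 22.1% and 8.46%. The shares of Ndst3 and Ndst4 in the second 6-OHDA+NDST3 library lay between that of 6-OHDA and those of sham. With 2 libraries against 1, no exact test of these shares could reach 0.05, and none was run.

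The 6-O-sulfotransferases put sulfate on the 6 position of glucosamine, a mark needed for many growth factor complexes, and 2 of the 3 fell. Hs6st2 (chrX:51386637-51681705 in GRCm38.p6) had 81.1 and 95.4 CPM in sham, 27.6 in 6-OHDA, and 87.1 and 72.8 in 6-OHDA+NDST3. Its mean was 88.3 ± 10.1 CPM in sham and 80.0 ± 10.1 in 6-OHDA+NDST3 (SD, n = 2), and the 6-OHDA library was the lowest of the 5. Hs6st2 fell by 1.67 on the log2 scale (SE 0.18, adjusted p = 0.00823 from edgeR). Hs6st3 was less abundant, with 5.92 and 9.11 CPM in sham, 2.71 in 6-OHDA, and 7.22 and 5.29 in 6-OHDA+NDST3, and it fell by 1.47 (SE 0.39, adjusted p = 0.0403 from edgeR). Hs6st1 had 71.5 and 86.1 CPM in sham and 64.7 in 6-OHDA, a log2 fold change of -0.29 (SE 0.14, adjusted p = 0.179 from edgeR). In TPM the family summed to 99 and 121 in sham, 52.9 in 6-OHDA, and 108 and 99.7 in 6-OHDA+NDST3. The share of Hs6st2 was 44.6% and 43.7% in sham, 24.2% in 6-OHDA, and 43.2% and 39.5% in 6-OHDA+NDST3.

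The 3-O-sulfotransferases add the rarest mark, and 3 of the 6 fell. Hs3st2 had 8.17 and 13 CPM in sham, 1.99 in 6-OHDA, and 11.2 and 6.18 in 6-OHDA+NDST3, and fell by 2.41 (SE 0.53, adjusted p = 0.0248 from edgeR), the largest fall of any member. Hs3st4 (chr7:123982366-124398989 in GRCm38.p6) had 29.8 and 37.6 CPM in sham, 15.7 in 6-OHDA, and 36.1 and 34.5 in 6-OHDA+NDST3, and fell by 1.10 (SE 0.19, adjusted p = 0.0132 from edgeR). Hs3st5 had 10.7 and 14.6 CPM, then 6.18, then 12.3 and 13.1, and fell by 1.03 (SE 0.25, adjusted p = 0.0317 from edgeR). In each of these the 6-OHDA library was the lowest of the 5. The other members of the family did not follow them. Hs3st1 had 18.8 and 21.7 CPM in sham and 24.7 in 6-OHDA, with a log2 fold change of 0.29 (adjusted p = 0.224 from edgeR), while Hs3st3b1 showed a log2 fold change of 0.77 (SE 0.37, adjusted p = 0.161). Hs3st3a1, at 2.47 to 5.26 CPM in all libraries, gave 0.06. In TPM, Hs3st1 made up 38.8% and 35.1% of the family's sum in sham, 60.6% in 6-OHDA, and 39.1% and 38.2% in 6-OHDA+NDST3. The 10 neuron markers all fell in this comparison, and their part in the lower sulfotransferase values was not tested. In bulk tissue, fewer cells of a type and less RNA per cell cannot be told apart.

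**Figure D2:**
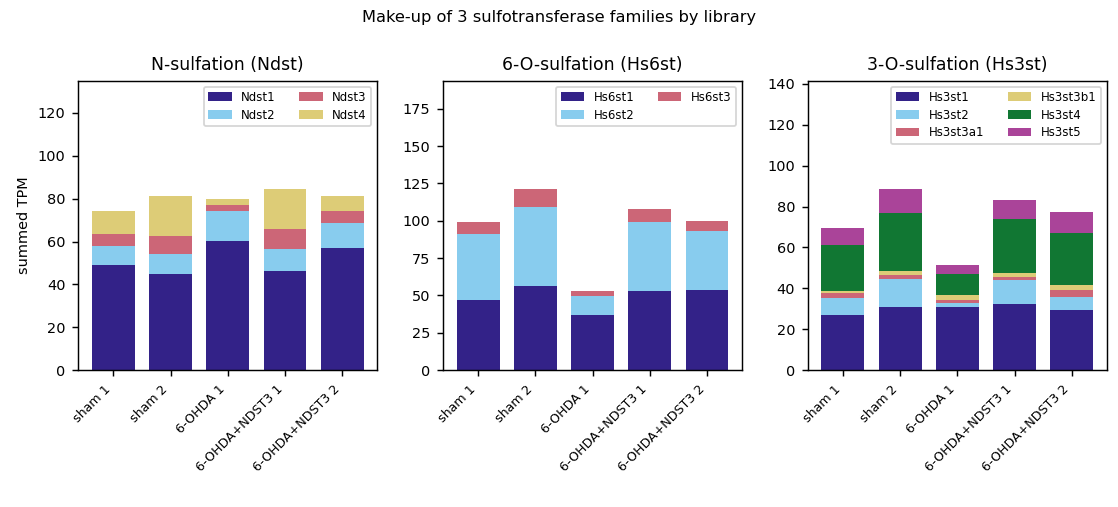
Summed TPM of the Ndst, Hs6st and Hs3st families in each of the 5 RNA-seq libraries, with each bar divided by gene and starting at 0. The Ndst sum stayed between 74.4 and 84.3 TPM, while the Hs6st sum was 52.9 TPM in the 6-OHDA library against 99 to 121 in the others, and the Hs3st sum 51.2 against 69.6 to 88.3.

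Enzymes that edit the chain outside the cell were higher after the lesion. Heparanase, which cuts heparan sulfate chains, is encoded by Hpse (chr5:100679484-100719716 in GRCm38.p6). It had 71 and 17 counts in sham (1.38 and 0.246 CPM), 1488 in 6-OHDA (28.8 CPM), and 393 and 827 in 6-OHDA+NDST3 (6.6 and 13.9 CPM). Both sham libraries lay below all 3 libraries of lesioned mice, with a mean of 0.812 ± 0.801 CPM in sham and 10.2 ± 5.13 in 6-OHDA+NDST3 (SD, n = 2). Hpse rose by 5.20 on the log2 scale, a 36.7-fold difference (SE 0.91, adjusted p = 0.0145 from edgeR), and the log2 value lay between 2.98 and 6.86 over the alternatives. Sulf2, which removes 6-O-sulfates at the cell surface (chr2:166073899-166155683 in GRCm38.p6), had 149 and 124 CPM in sham, 291 in 6-OHDA, and 160 and 171 in 6-OHDA+NDST3, and rose by 1.09 (SE 0.15, adjusted p = 0.00915 from edgeR). Its relative Sulf1 had 25.3 and 17.2 CPM in sham, 47.1 in 6-OHDA, and 23.9 and 49.5 in 6-OHDA+NDST3. The second 6-OHDA+NDST3 library stood close to 6-OHDA and the first within the range of sham. The log2 fold change of 1.15 between 6-OHDA and sham did not pass the test (SE 0.46, adjusted p = 0.111 from edgeR).

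Markers of microglia and of monocytes or macrophages moved with heparanase. The 8 microglia markers summed to 504 and 379 CPM in sham, 2840 in 6-OHDA, and 1020 and 1630 in 6-OHDA+NDST3, and 7 of the 8 rose in 6-OHDA. The 7 monocyte or macrophage markers summed to 3630 and 2100, then 23700, then 8060 and 11900 CPM, and 5 of the 7 rose. The second 6-OHDA+NDST3 library was above the first in both sums, as it was for Hpse. The part of these cells in the Hpse result was not tested.

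Of the 4 syndecans, Sdc1 and Sdc4 rose. Sdc4 (chr2:164424247-164443188 in GRCm38.p6), a syndecan of focal adhesions, had 89.7 and 77.8 CPM in sham, 196 in 6-OHDA, and 108 and 118 in 6-OHDA+NDST3, and rose by 1.22 (SE 0.13, adjusted p = 0.00823 from edgeR). Sdc1 was far less abundant, at 6.10 and 4.29 CPM in sham, 14.6 in 6-OHDA, and 5.46 and 6.6 in 6-OHDA+NDST3, and rose by 1.49 (SE 0.28, adjusted p = 0.0165 from edgeR). Sdc3, the main neuronal syndecan and the member with the most counts, had 438 and 395 CPM in sham and 529 in 6-OHDA, a log2 fold change of 0.34 (SE 0.13, adjusted p = 0.0922 from edgeR). Sdc2 showed a log2 fold change of 0.22. Per length, Sdc4 made up 24% and 23.0% of the syndecan TPM in sham, 36.1% in 6-OHDA, and 28.2% and 28.7% in 6-OHDA+NDST3.

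The glypicans moved in opposite directions. Gpc4 (chrX:52051007-52164923 in GRCm38.p6), which astrocytes secrete and which promotes synapse formation, had 10.8 and 8.62 CPM in sham, 24 in 6-OHDA, and 8.58 and 9.13 in 6-OHDA+NDST3. It rose by 1.30 (SE 0.19, adjusted p = 0.0103 from edgeR). Gpc6, its close relative (chr14:116924920-117979529 in GRCm38.p6), had 17.4 and 15 CPM, then 34.2, then 13.6 and 13.2, and rose by 1.08 (SE 0.15, adjusted p = 0.0097 from edgeR). Gpc5 (chr14:115092201-116525192 in GRCm38.p6) fell by 1.22 (SE 0.17, adjusted p = 0.00936 from edgeR), with 52.2 and 54.7 CPM in sham, 23.0 in 6-OHDA, and 48.5 and 39.5 in 6-OHDA+NDST3. In each of these 3 genes the 6-OHDA library lay outside the range of the other 4. Gpc5 gave 32.0% and 36.7% of the glypican TPM in sham, 13.2% in 6-OHDA, and 37.6% and 24.5% in 6-OHDA+NDST3. Gpc1, Gpc2 and Gpc3 had log2 fold changes of 0.24, -0.07 and 0.54 and did not pass the test, and the sign for Gpc2 changed in 3 of 14 alternatives.

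Both secreted cores rose. Hspg2 encodes perlecan, a core of vascular basement membranes (chr4:137468751-137570630 in GRCm38.p6), and had 24.5 and 14.8 CPM in sham, 65.3 in 6-OHDA, and 15.9 and 19.3 in 6-OHDA+NDST3. The 6-OHDA library was far above the other 4, and Hspg2 rose by 1.73 (SE 0.31, adjusted p = 0.0152 from edgeR). Agrn, the organizer of the neuromuscular synapse that is also found in brain vessels, had 149 and 124 CPM, then 196, then 128 and 134, and rose by 0.52 (SE 0.14, adjusted p = 0.0446 from edgeR). Agrn was called in 4 of the 14 alternatives. Fibroblast markers moved with the cores, summing over 6 genes to 395 and 237 CPM in sham, 1350 in 6-OHDA, and 215 and 285 in 6-OHDA+NDST3, and all 6 rose in 6-OHDA. The 6 mural markers summed to 245 and 197, then 508, then 143 and 166 CPM, with 3 of 6 higher. The 8 endothelial markers summed to 311 and 269, then 493, then 285 and 331 CPM, with 5 of 8 higher, and the 8 astrocyte markers to 6540 and 5450, then 12100, then 7690 and 8190 CPM, with 4 higher and 1 lower. The part of these cells in the core protein results was not tested.

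Enzymes of the linker and of chain growth differed less. Extl2 (chr3:116007449-116029017 in GRCm38.p6), an exostosin-like transferase that acts on the linker, fell by 0.70 (SE 0.11, adjusted p = 0.0113 from edgeR), from 83.0 and 89.7 CPM in sham to 53.1 in 6-OHDA, with 82.3 and 79.3 in 6-OHDA+NDST3. B3gat3, which closes the linker with glucuronic acid, fell by 0.69 (SE 0.14, adjusted p = 0.021 from edgeR), with 135 and 148 CPM, then 88, then 132 and 114. The polymerase pair Ext1 and Ext2 went the other way. Ext1 rose by 0.65 (SE 0.17, adjusted p = 0.040 from edgeR), with 19.4 and 19.9 CPM, then 30.9, then 26.1 and 20.9. Ext2 rose by 0.39 (SE 0.11, adjusted p = 0.043 from edgeR), with 55.3 and 51.7 CPM, then 70.0, then 55.2 and 57.9. Ext2 had the smallest difference called, and was called in 5 of the 14 alternatives.

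The remaining members did not pass the test. Extl1 showed a log2 fold change of -0.67 (adjusted p = 0.052 from edgeR) and Extl3 of 0.24. The other 4 linker enzymes lay between -0.39 (B4galt7) and 0.04 (Xylt2). Glce, the epimerase, and Hs2st1, the only 2-O-sulfotransferase, had values of -0.27 and 0.21. Papss1 and Papss2, which make the sulfate donor, had values of 0.30 and 0.82. Papss2 had 30.1 and 16.0 CPM in the sham libraries, and the standard error of its value was 0.37.

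**Figure D3:**
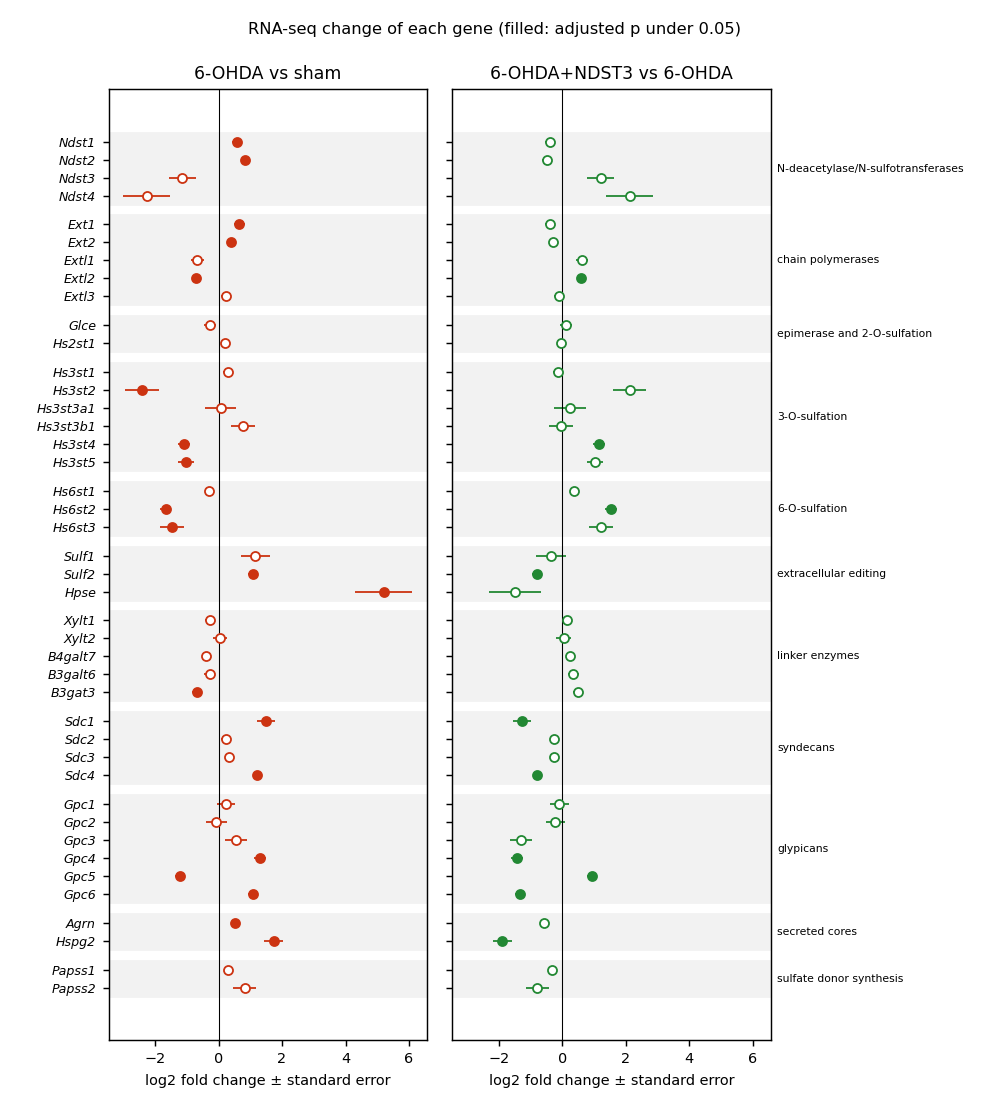
Log2 fold change with its standard error (edgeR, 5 libraries) of each member, for 6-OHDA against sham and for 6-OHDA+NDST3 against 6-OHDA on the same axis, with filled points at an adjusted p under 0.05. The values run from -2.41 (Hs3st2) to 5.20 (Hpse) on one side and from -1.89 (Hspg2) to 2.12 (Ndst4 and Hs3st2) on the other.

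In the NDST3-treated PD model, 10 of the 42 members differed from the 6-OHDA-induced PD model at an adjusted p under 0.05 (edgeR with Benjamini-Hochberg adjustment), against 15.6% of all genes. Extl2, Hs3st4, Hs6st2 and Gpc5 were higher, where 9.06% of all genes were. Sulf2, Sdc1, Sdc4, Gpc4, Gpc6 and Hspg2 were lower, where 6.59% of all genes were. The median was -0.09 over the members and 0.00 over all genes. At 2-fold with a raw p under 0.05, 12 members passed (7 higher, 5 lower) against 15.7% of all genes (7.3% higher, 8.37% lower). A raw p under 0.05 alone was reached by 22 members and by 37.9% of all genes. Both 6-OHDA+NDST3 libraries lay above 6-OHDA for 15 members (42.4% of all genes) and below it for 19 (43.2%), which sums to 85.6% of all genes. This comparison uses the same single 6-OHDA library as the one with sham, so that a value peculiar to that library enters both with opposite signs.

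All edgeR calls of members were lost without sham 1, without sham 2 or without the first 6-OHDA+NDST3 library. Without the second 6-OHDA+NDST3 library members were still called. With all libraries DESeq2 called 18 members and 25.7% of all genes. When only these 2 groups entered the fit, edgeR called 0 members and 0 genes. At a raw p under 0.05, 20 members and 5924 of 19091 genes passed there. The 10 called members kept their direction in all 14 alternatives, which again share the single 6-OHDA library and cannot show how far the direction rests on it.

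The largest called rise was that of Hs6st2, by 1.53 (SE 0.18, adjusted p = 0.032 from edgeR), and Hs3st4 rose by 1.17 (SE 0.19, adjusted p = 0.0344). Gpc5 rose by 0.94 (SE 0.16, adjusted p = 0.0361) and Extl2 by 0.60 (SE 0.11, adjusted p = 0.0367). In all 4 both 6-OHDA+NDST3 libraries were above the 6-OHDA library. Hspg2 fell by 1.89 (SE 0.31, adjusted p = 0.035), Gpc4 by 1.44 (SE 0.19, adjusted p = 0.032) and Gpc6 by 1.35 (SE 0.15, adjusted p = 0.032). Sdc1 fell by 1.27 (adjusted p = 0.0458), Sulf2 by 0.81 (adjusted p = 0.0371) and Sdc4 by 0.79 (adjusted p = 0.035). The neuron markers moved with the first group of genes, with 7 of 10 higher. The fibroblast markers moved with the second, with 6 of 6 lower, as did 5 of 6 mural and 5 of 8 endothelial markers. Their part in the results was not tested.

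The N-deacetylase/N-sulfotransferases were not called in this comparison. Mouse Ndst3 showed a log2 fold change of 1.21 (SE 0.43, adjusted p = 0.111 from edgeR) and Ndst4 of 2.12 (SE 0.73, adjusted p = 0.105). Ndst1 had -0.39 and Ndst2 -0.49 (adjusted p = 0.135 and 0.0781). Hpse showed a log2 fold change of -1.49 (SE 0.82, adjusted p = 0.243), with both 6-OHDA+NDST3 libraries below 6-OHDA. Hs3st2 and Hs3st5 had 2.12 and 1.04 (adjusted p = 0.0545 and 0.0525), just outside the threshold. Gpc3, which was not called against sham in 6-OHDA, had 18.4 CPM in 6-OHDA and 6.52 and 8.38 in 6-OHDA+NDST3, a log2 fold change of -1.30 (SE 0.34, adjusted p = 0.0618).

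Between the NDST3-treated PD model and sham, edgeR called 0 of the 42 members and 0 genes in all. At a raw p under 0.05, 4 members and 2744 genes (14.2%) passed, and DESeq2 called 1 member and 1048 genes. The groups did not overlap for 7 members that were higher (26.5% of all genes) and 7 that were lower (22.4%), or 48.9% of all genes in either direction, and the median was 0.05 over the members and 0.01 over all genes. Hpse alone passed the 2-fold threshold with a raw p under 0.05, as 5.86% of all genes did (4.78% higher, 1.08% lower). Its log2 fold change of 3.70, a 13-fold difference, had an SE of 0.82 (adjusted p = 0.186 from edgeR), and both 6-OHDA+NDST3 libraries were above both sham libraries. Sdc4 had 0.43 (SE 0.11, adjusted p = 0.218) and Ndst2 0.35 (SE 0.12, adjusted p = 0.312). Gpc3 had the lowest value, -0.76 (SE 0.29, adjusted p = 0.349). Ndst3 stood at 0.07 (SE 0.33) and Ndst4 at -0.15 (SE 0.53), and both changed sign when single libraries were left out.

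Other genes of the pathway were read from lists that hold none of the 42, and their counts stand beside the shares of all genes tested, 18.8% higher and 17.1% lower in 6-OHDA against sham, and 9.06% higher and 6.59% lower in 6-OHDA+NDST3 against 6-OHDA. Of a list of 10 others (supply of sugars and sulfate, linker phosphorylation and further enzymes) 8 were tested, and 6 rose and 1 fell in 6-OHDA against sham, and 3 fell in 6-OHDA+NDST3 against 6-OHDA. Slc35b2, the Golgi carrier of the sulfate donor, rose by 1.30 (adjusted p = 0.00869 from edgeR) and then fell by 0.82 (adjusted p = 0.0408). Slc35d1, a nucleotide sugar carrier, and Ugdh, which makes UDP-glucuronic acid, rose by 1.06 and 0.76 and fell by 0.66 and 0.57. Of 8 lysosomal enzymes that degrade heparan sulfate, 3 rose and 2 fell in 6-OHDA, and 1 rose and 2 fell in 6-OHDA+NDST3 against 6-OHDA. Gusb, the lysosomal beta-glucuronidase, rose by 2.85 (SE 0.26, adjusted p = 0.00823 from edgeR) and Naglu by 2.24 (SE 0.30, adjusted p = 0.00918), whereas Ids, iduronate sulfatase, fell by 0.81 (adjusted p = 0.0128).

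Among 9 further proteins that can carry heparan sulfate, 4 rose and 2 fell in 6-OHDA, and 2 rose and 2 fell in 6-OHDA+NDST3 against 6-OHDA. Cd44, which is carried by activated astrocytes and leukocytes, rose by 4.02 (SE 0.62, adjusted p = 0.0111 from edgeR) and Srgn, the granule proteoglycan of blood cells, by 2.34. Spock2, a testican of neurons, fell by 1.49. For chondroitin and dermatan sulfate, the sister chains that share the linker, 6 of 15 synthesis genes rose and 1 fell in 6-OHDA, and 3 fell in 6-OHDA+NDST3 against 6-OHDA. Of 7 chondroitin sulfate cores 3 were called higher, among them Ncan by 1.37 and Vcan by 1.58, and none lower. Acan had the largest value, -2.39, which did not pass (SE 0.69, adjusted p = 0.0515 from edgeR). In 6-OHDA+NDST3 against 6-OHDA, 2 of the 7 were called lower. Of 15 partners of heparan sulfate, 1 rose and 6 fell, and 3 rose and 1 fell in 6-OHDA+NDST3 against 6-OHDA. Fgf2, a growth factor that signals with heparan sulfate as co-receptor, rose by 2.34 (SE 0.27, adjusted p = 0.00847 from edgeR), while the guidance cue Slit1 and the receptor Robo1 fell by 1.52 and 1.08. In 6-OHDA+NDST3 against 6-OHDA, Fgf2 fell by 1.32 and Slit1 and Robo1 rose by 1.03 and 0.85 (largest adjusted p = 0.0418 from edgeR).

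The scRNA-seq table gives 1 mean per cluster for 1 library of the 6-OHDA-induced PD model and 1 of the NDST3-treated PD model, over 26646 genes and 9 clusters, and lists all 42 members. Their range is that of a natural log of scaled counts. The table used here holds cluster means, so that doublets could not be called. By its methods, the study dropped cells with very many detected genes or much mitochondrial RNA before averaging. They have no replicate, so that nothing was tested, and the sham library was not analysed here. By their markers, cluster 1 was neutrophil-like, cluster 4 T cell-like, cluster 5 mural-like, cluster 6 microglia-like, cluster 7 endothelial-like and cluster 9 B cell-like. Cluster 2 held the highest values of astrocyte, oligodendrocyte, fibroblast, choroid plexus and most neuron markers at once and stayed unnamed, as did clusters 3 and 8. Neuron markers were low throughout, with at most 2 of 10 above 0.1 in any cluster. In cluster 2 it was 1 of 10, with a median of 0.0343. Low values of a gene in these clusters therefore say little of its level in neurons.

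More members were detected in cluster 2 and in the mural-like cluster than in the others. A mean above 0.1 in either library was found for 33 members in at least 1 cluster. Cluster 2 had 27 of the 42 members above 0.1 (64.3%, against 36.9% of all genes) and the mural-like cluster 5 had 18 (42.9%, against 28.0%). The other clusters had 10 to 14 members, which was 23.8% to 33.3% where all genes gave 21.9% to 28.7%. Of the 33 members, 11 were highest in cluster 2, 7 in the endothelial-like cluster 7 and 6 in the mural-like cluster 5. Of all genes above 0.1 in some cluster, 31.8%, 15.7% and 10.3% were highest in these clusters.

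Ndst3 was highest in the mural-like cluster, with means of 0.628 in 6-OHDA and 0.722 in 6-OHDA+NDST3, followed by cluster 2 with 0.150 and 0.095. In the other 7 clusters it was at most 0.035. Ndst1 was spread over more clusters, with 0.325 and 0.365 in the mural-like cluster and 0.295 and 0.346 in cluster 2. Ndst4 did not exceed 0.001 in any cluster. Of the sulfotransferases that were lower in bulk 6-OHDA tissue, Hs6st3 was found in cluster 2 alone (0.288 and 0.277), Hs6st2 reached 0.127 and 0.142 there, and Hs3st2, Hs3st4 and Hs3st5 were at or below 0.053 in every cluster.

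The core proteins were highest in different clusters. Sdc2 was highest in the mural-like cluster (1.49 and 1.43), as were Sdc4 (1.30 and 1.27), Gpc3 (0.476 and 0.506) and Gpc4 (0.281 and 0.308). Sdc4 was also high in cluster 3 (1.04 and 0.948), which holds macrophage and microglia markers. Gpc6 was highest in cluster 2 (0.986 and 1.05) with the mural-like cluster next (0.855 and 0.858), while Gpc5 was found in cluster 2 alone (0.624 and 0.60). Agrn (0.604 and 0.593), Hspg2 (0.384 in both libraries) and Hs3st1 (0.50 and 0.515) were highest in the endothelial-like cluster. Other cores were low, with Sdc1 highest in the B cell-like cluster (0.176 and 0.065), Gpc1 above 0.1 only in the T cell-like cluster (0.121 and 0.023) and Gpc2 at or below 0.034 in every cluster. Sdc3 was highest in the endothelial-like cluster (0.294 and 0.370).

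Some members were highest in clusters with immune markers. Xylt1, which places the first sugar of the linker, reached 2.51 and 2.58 in the neutrophil-like cluster and 1.17 and 1.28 in the B cell-like cluster, the former the highest mean of any member. Ext1 was above 0.1 in all 9 clusters and highest in the neutrophil-like cluster (1.26 and 1.33). Hpse passed 0.1 in 3 clusters, with 0.265 and 0.226 in the B cell-like cluster, 0.164 and 0.311 in cluster 3 and 0.112 and 0.074 in the neutrophil-like cluster. In the microglia-like cluster 6 Hpse was below that limit, with 0.019 and 0.044. In cluster 2 and in the vascular clusters Hpse was at most 0.022.

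Between the libraries of the NDST3-treated and the 6-OHDA-induced PD model, no member differed by 1 on the log2 scale in any cluster, and over all genes and clusters 0.00917% of values were higher and 0.00334% lower by that much. None differed by 0.5, past which 0.0726% of all values were higher and 0.0688% lower. At 0.25 on the log2 scale, 0.425% of all values were higher and 0.497% lower. Only Sdc4 (-0.39) and Glce (-0.29) passed it, both in the B cell-like cluster 9. For Ndst3, the largest difference was 0.14, in the mural-like cluster.

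**Figure D4:**
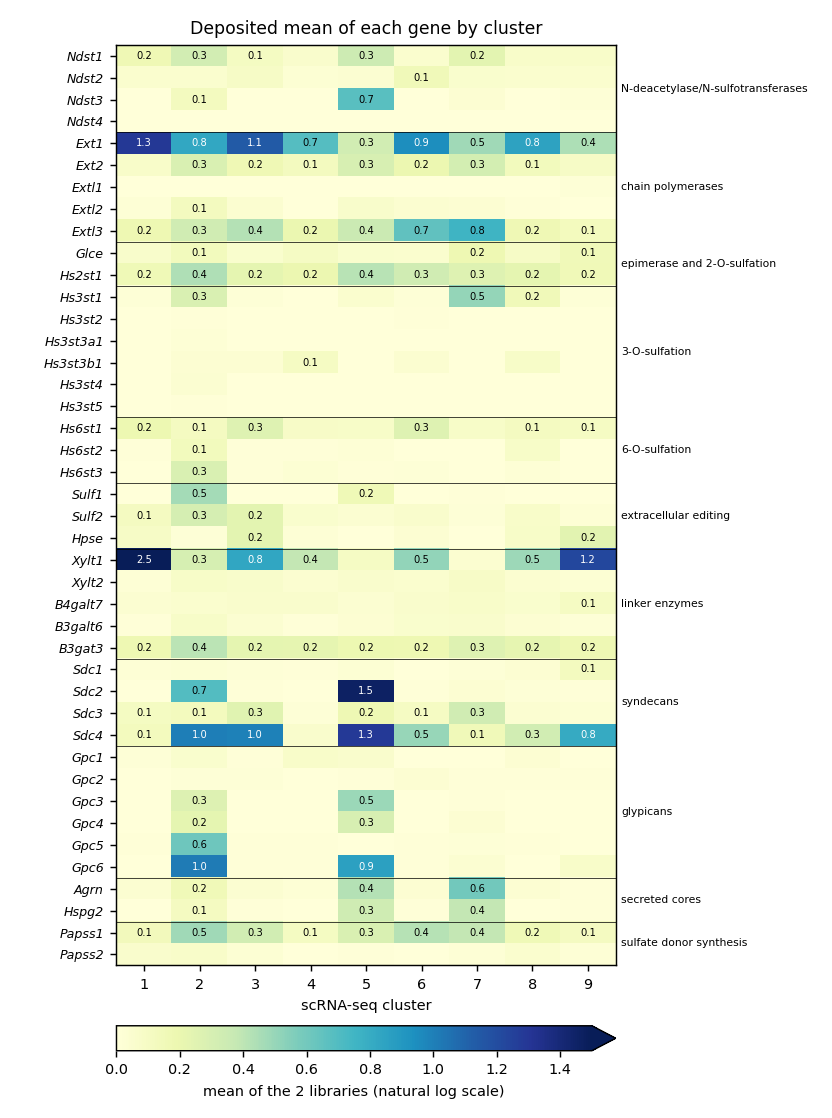
Mean of the 2 scRNA-seq libraries for each member (rows, by role) in each of the 9 clusters (columns), on the natural log scale of the deposited values, with the colour held at 1.5. Xylt1 in cluster 1, Sdc2 and Sdc4 in cluster 5 and Gpc6 in cluster 2 stand out, and the rows of Ndst4, Hs3st2 and Hs3st5 are near 0 throughout.

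H3K27ac, a histone mark of active promoters and enhancers, was measured by CUT&RUN, and open chromatin by ATAC-seq. Both tables give the tag signal of regions within 1 kb of a start site with 1 value for each group. The CUT&RUN value pools 2 libraries and the ATAC-seq value comes from 1, so that neither was tested. Ratios were taken after adding 1 to each signal. The positions listed do not match the start sites of the same genes in GRCm38, although mm10 is named for the processing, so only the listed distances to a start site are given. Of 11424 H3K27ac regions, 21 lay at 12 members.

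The region 97 bases before a listed Ndst3 start had an H3K27ac signal of 14.1 in sham, 6.95 in 6-OHDA and 13.4 in 6-OHDA+NDST3. On the log2 scale this was -0.93 for 6-OHDA against sham and 0.86 for 6-OHDA+NDST3 against 6-OHDA, both short of 2-fold. Over all regions the medians were 0.13 and 0.39, and in the second comparison the lower quartile was 0.18, so that most listed regions rose there. At Ndst4 the order was different from its RNA. The region 96 bases before the start had 20.4, 36.0 and 46.9, and that 72 bases after it had 8.58, 27.1 and 43.2, a log2 difference of 1.55 for 6-OHDA against sham. Ndst4 RNA was lowest in 6-OHDA, where both of its regions had more signal than in sham. At Ndst2 the region 60 bases before the start had 7.06, 5.95 and 9.42.

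Past 2-fold in 6-OHDA against sham were 3 of the 21 regions, 2 higher and 1 lower, where 12.3% of all regions were (7.77% higher, 4.52% lower). Beside Ndst4 these were the region at Hs6st3 (4.52, 11.5 and 13.4, a log2 difference of 1.17), a gene whose RNA fell, and the region 35 bases before Papss1 (8.0, 2.0 and 8.0, a difference of -1.58). The latter signal is low in all groups. The Papss1 region 149 bases before the start had 9.07, 6.95 and 8.94. That 470 bases after it went the other way, with 20.98, 34.3 and 42.05, a log2 difference of 0.68. In 6-OHDA+NDST3 against 6-OHDA, 2 regions were over 2-fold higher and none lower, where 11.1% of all regions were higher and none lower. These were that of Papss1 and the Gpc5 region 167 bases before the start (20.1, 14.4 and 34.3, a difference of 1.20). Gpc5 RNA also rose in this comparison. Over all listed regions the lower quartile of this log2 difference was 0.18 and the median 0.39. A rise was thus the rule among listed regions, and how they were chosen is not known. Against sham, 4 regions were over 2-fold higher in 6-OHDA+NDST3 and none lower, where 25.7% of all regions were higher and 0.636% lower (26.3% in all). They were both regions at Ndst4 and 1 each at Hs6st3 and Sulf1. The Sulf1 region had 18.2, 32.6 and 42.3. Members' medians of -0.14, 0.37 and 0.42 in these comparisons stood beside 0.13, 0.39 and 0.53 for all regions.

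In ATAC-seq, 10 of 3582 regions lay at 7 members, and 9 of them at 6 members had a value in every group. The region at Gpc3 had a value in 6-OHDA alone. The region 650 bases before a listed Ndst3 start had a signal of 6.4 in sham, 3.50 in 6-OHDA and 0.50 in 6-OHDA+NDST3. This was a log2 difference of -0.72 for 6-OHDA against sham and -1.58 for 6-OHDA+NDST3 against 6-OHDA. Its signal was lowest in 6-OHDA+NDST3, at a level near 0. By the listed positions, this start is not the one at the Ndst3 H3K27ac region, so the signals belong to different places. At Hs6st1 the region 213 bases before the start had 1.46, 9.25 and 4.63, a difference of 2.06 in 6-OHDA against sham. These were the only regions past 2-fold in those comparisons, where 9.64% and 7.94% of all regions were. Against sham 3 regions passed in 6-OHDA+NDST3 (14.3% of all regions), those of Ndst3 and Hs3st1 lower and that of Hs6st1 higher. The Hs3st1 region had 14.4, 8.25 and 5.67. The Papss1 region 62 bases after a listed start had by far the most signal, with 130, 148 and 164. That start also differs from the one at the Papss1 H3K27ac regions.

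**Figure D5:**
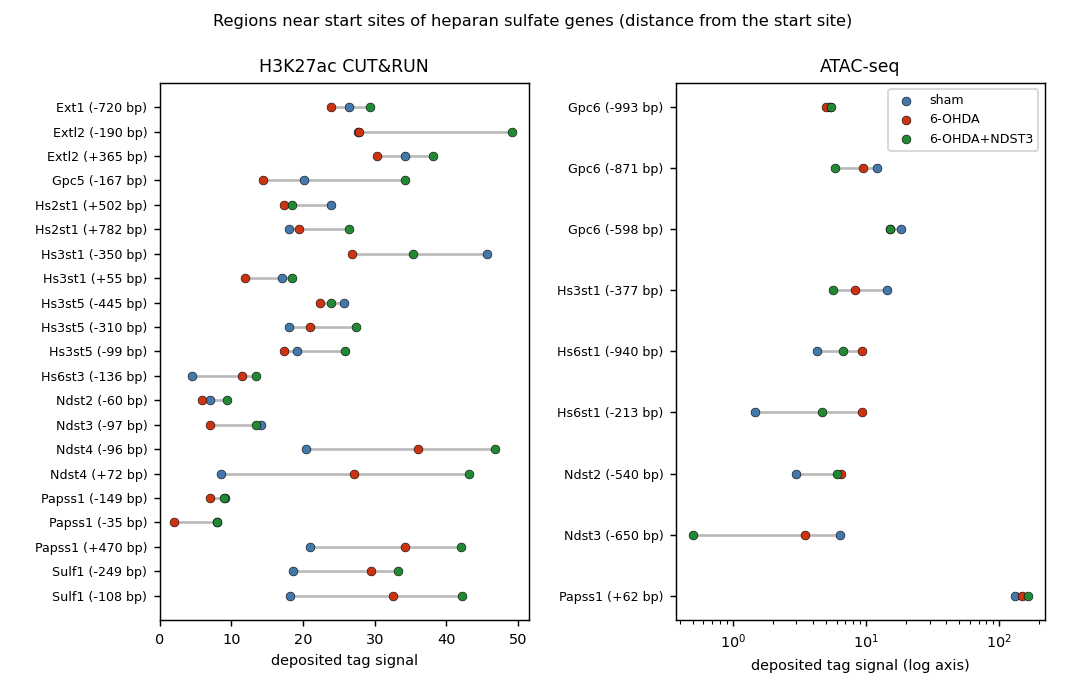
Tag signal of each H3K27ac and ATAC-seq region at a member (rows, with the distance from the start site in bases) in sham, 6-OHDA and 6-OHDA+NDST3, with 1 value per group and a log axis for ATAC-seq. The Ndst3 H3K27ac signal was 6.95 in 6-OHDA against 14.1 in sham and 13.4 in 6-OHDA+NDST3, and the Ndst4 signals were highest in 6-OHDA+NDST3.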

How the data were processed

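RNA-seq (2 sham, 1 6-OHDA and 2 6-OHDA+NDST3 libraries), H3K27ac CUT&RUN (2 libraries per group), ATAC-seq (1 per group) and scRNA-seq (1 per group, sham not analysed here) of mouse brain were analysed from deposited tables. RNA-seq reads were aligned to mm10 by HISAT2 and assembled by StringTie, and for each gene the authors gave the read count. FPKM and TPM of the same genes, scaled for gene length and library size, were deposited beside it. For scRNA-seq the authors' table gives cluster means whose header says mean count, while their range is that of a natural log of counts scaled to 10000 per cell. For CUT&RUN and ATAC-seq each region has 1 deposited tag signal in every group, with a normalization that is not given in the sources used here.

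The 42 members and all gene lists were chosen with earlier results of these data known. Every member is accounted for by role. Of the other lists, up to 4 genes by smallest p are named. Counts were fitted with edgeR 4.0.16 (R 4.3.3) over all 5 libraries, with TMM factors, filterByExpr and the quasi-likelihood test, and p-values were adjusted by Benjamini-Hochberg over 19300 genes. The standard error is the size of the log2 fold change divided by the square root of F, with 2 residual degrees of freedom before moderation. CPM values use the TMM factors (0.979 to 1.016). Counting error is small beside the spread between libraries for all members but those with few counts, such as Hpse in sham. Shares within a family were computed from TPM and not tested. DESeq2 1.42.0, limma 3.58.1 on log2(FPKM + 1), other filters and scalings, a replicate block and leaving out each library were run as alternatives. Regions below a signal of 1 in every group did not enter the background shares, and ratios were taken after adding a pseudocount of 1. Promoter windows are RefSeq, GRCm38.p6. Python 3.11.15 with pandas 2.3.3, numpy 2.4.6 and matplotlib 3.10.9 was used.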

Additional observations from a re-analysis of the deposited data

How the results depend on the processing

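The calls rest on few libraries. Against sham, 20 members were called in 6-OHDA. The count was between 0 and 23 with each sham or 6-OHDA+NDST3 library left out in turn, and 3 with a replicate block. The single 6-OHDA library could not be left out. In 6-OHDA+NDST3 against 6-OHDA the count of 10 ranged from 0 to 13 with libraries left out. It was 18 with DESeq2 (25.7% of all genes) and 5 with limma on log2(FPKM + 1) without a filter (7.74%). It was 0, with 0 genes in all, with limma on log2(FPKM + 0.1), with only the 2 groups compared and with the replicate block. At a raw p under 0.05 those 3 zeros held 17 members (6517 of 18626 genes), 20 (5924 of 19091) and 15 (4583 of 19300). Against sham, 6-OHDA+NDST3 gave 1 member with DESeq2 (5.16% of all genes) and 1 by the 2-fold threshold (5.86%). There edgeR gave 0 by adjusted p (0 genes) and 4 at a raw p under 0.05 (14.2%). Deviations of replicates with the same number were negatively correlated over genes between sham and 6-OHDA+NDST3 (-0.326). Whether samples with the same number share anything else, such as a batch, is not known. With the numbers crossed, a pairing chosen after seeing the data, the block called 24, 18 and 3 members. Of all genes it called 38.6%, 24.8% and 6.19%.

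The direction of the 20 and 10 called members held in every alternative, and signs changed only among members that were not called. Since the same single 6-OHDA library is in every alternative, this does not show that the directions would hold in another. For 6-OHDA against sham, leaving out libraries gave log2 fold changes of -0.07 to 0.20 for Hs3st3a1 and -0.26 to 0.15 for Gpc2, and the crossed block gave -0.29 for Hs3st3a1, -0.07 for Xylt2 and 0.10 for Gpc2. For 6-OHDA+NDST3 against 6-OHDA, libraries left out gave -0.28 to 0.03 for Extl3, -0.10 to 0.30 for Glce, -0.13 to 0.01 for Hs2st1, -0.43 to 0.69 for Hs3st3a1, -0.23 to 0.11 for Hs3st3b1, -1.01 to 0.07 for Sulf1, -0.26 to 0.27 for Xylt2 and -0.52 to 0.22 for Gpc1. The replicate block gave -0.02 for Hs3st3a1 and -0.12 for Xylt2, and the crossed block 0.07 for Gpc1. For 6-OHDA+NDST3 against sham, Ndst3 ranged from -0.38 to 0.39 and Ndst4 from -1.07 to 0.38. Of the members' values under alternatives, 1100 kept their direction and side of the threshold, 148 lost a call and 48 gained one. In the order 6-OHDA against sham, 6-OHDA+NDST3 against 6-OHDA and 6-OHDA+NDST3 against sham, a 1.5-fold threshold gave 9, 5 and 8 H3K27ac regions and 5, 3 and 5 ATAC-seq regions, and a pseudocount of 0.1 gave 3 ATAC-seq regions in the first. In scRNA-seq, a detection limit of 0.2 gave 4 members in cluster 1, 5 in cluster 4, 7 in cluster 6, 5 in cluster 8 and 5 in cluster 9. A limit of 0.05 gave 16 in cluster 4, 17 in cluster 6 and 20 in cluster 8, and a difference of 0.25 was passed by 2 members. Shares of all regions at 1.5-fold and of all genes at the 0.2 and 0.05 limits are not given here. Those counts therefore do not set the members apart from other regions or genes. Why these values moved was not tested.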
